A study of Mus musculus with 8 samples.

Results

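DNA replication genes code for the proteins that mark origins, load and switch on the replicative helicase, copy DNA and supply its building blocks, together with the E2F factors that control many of them. They were taken from the count table by a pattern of gene symbols, which was set with earlier results of these data known. The pattern kept 60 of the 11354 genes in the table. Poly(A) RNA had been sequenced from CD4 T cells on a Black6 background after their transfer into RAG-/- mice, a strain without T and B cells. In 4 libraries the label gives the transferred cells as Nlrp6 knock out (hosts 1, 2, 4 and 5, named here KO 1, KO 2, KO 4 and KO 5), and in the other 4 as wild type (hosts 1, 2, 4 and 5, named WT 1, WT 2, WT 4 and WT 5). All hosts carried the same RAG-/- genotype. The labels give neither age nor time after transfer, and do not say whether libraries with the same host number share a mouse. One label field names the host spleen as the source, and the extraction protocol names the colonic lamina propria.

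The targeted gene ran against its label. Nlrp6 had 487, 329, 477 and 648 counts in KO 1, KO 2, KO 4 and KO 5, against 5, 3, 3 and 8 counts in WT 1, WT 2, WT 4 and WT 5. The groups are therefore called libraries labelled knock-out and libraries labelled wild type, and every direction refers to those labels. Libraries held 35198192 to 40310721 counts, with the lowest total in KO 4. All 12 fixed T cell markers, Cd4 and the CD3 chains among them, were present in every library, with summed levels of 8736 to 9068 CPM under the knock-out label and 9070 to 10432 CPM under the wild-type label. CPM are counts scaled to library size, with factors from edgeR. The description code of the samples is 8 in KO 4 and KO 5 and 7 in the other 6 libraries, and what the code stands for is not given.

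As background, replication origins are bound by the origin recognition complex, on which Cdc6 and Cdt1 load the ring of Mcm2 to Mcm7 proteins in G1 phase. The Cdc7 kinase, Cdc45, the GINS complex and Mcm10 then turn the loaded ring into an active helicase, and DNA polymerases alpha, delta and epsilon copy the strands with the Pcna clamp. Most of these genes are transcribed in late G1 and S phase under E2F control, so their summed transcript level is widely used as a readout of cycling cells. In bulk RNA, fewer cells in S phase and less of these transcripts per cell cannot be told apart.

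No replication gene differed between the labels past the test. edgeR's quasi-likelihood test called 0 of 60 members at an adjusted p below 0.05, whereas it called 10.0% of all 11354 genes (6.20% higher and 3.84% lower under the knock-out label). At an unadjusted p below 0.05 there were 3 members, Pold4, Orc2 and E2f6, and 23.5% of all genes passed that limit. DESeq2 also called 0 members, with 3 at its unadjusted p below 0.05. Of all 11354 genes, DESeq2 called 926 higher and 653 lower, and 2718 had its unadjusted p below 0.05. limma-voom was run with sample quality weights, which count a more variable library less. It called 1 member, Pold4, which was lower (log2 fold change -0.30, limma adjusted p = 0.0362). Of all genes, limma-voom called 795 higher and 589 lower. The log2 fold changes of the 60 members, knock-out label over wild-type label, lay between -0.26 and 0.17. They were positive for 21 members and negative for 39, with a median of -0.05, against a median of -0.00 over all genes. That lean was not stable, since 28 members were negative in limma-voom (median 0.01) and 18 in edgeR without KO 4 (median 0.05). The limma-voom weights can lower the part of an outlying library, so these settings may not be independent of each other. The 95% intervals ran at their widest limits from 0.671-fold, for E2f2, to 1.35-fold, for Mcm8. The libraries of the labels did not overlap for 1 of 60 members, E2f6, whereas they did not overlap for 16.0% of all genes (8.60% with the knock-out label above and 7.37% with it below).

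**Figure D1:**
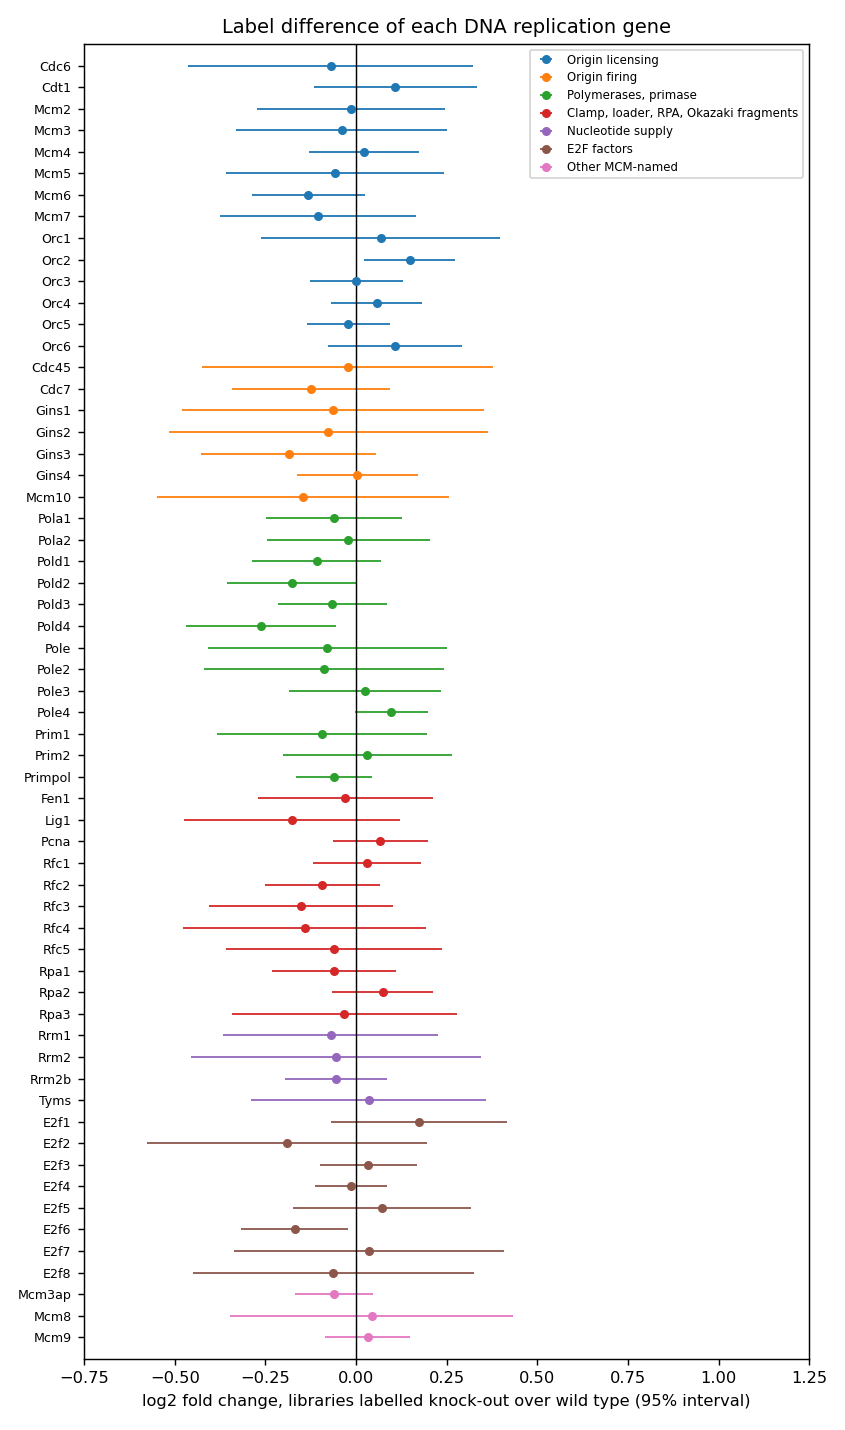
Log2 fold change of each of the 60 replication genes, libraries labelled knock-out over libraries labelled wild type (n = 4 each), on the x axis, with genes down the page by role and bars for 95% intervals from edgeR. Points lie between -0.26 and 0.17, and no gene passed the adjusted test.

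Summed over the 60 genes, the level was 3972, 3886, 3222 and 4285 CPM in KO 1, KO 2, KO 4 and KO 5, against 4073, 3704, 4078 and 3949 CPM in WT 1, WT 2, WT 4 and WT 5. KO 4 had the lowest sum of the 8 libraries and KO 5 the highest, and the wild-type label lay between them. The sums averaged 3841 ± 447 CPM under the knock-out label and 3951 ± 175 CPM under the wild-type label (SD, n = 4 each). The plot of each member by library shows the same for single genes. Among the libraries labelled knock-out, KO 4 was lowest and KO 5 highest for 41 of 60 members (68.3%), compared with 15.4% of all genes.

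**Figure D2:**
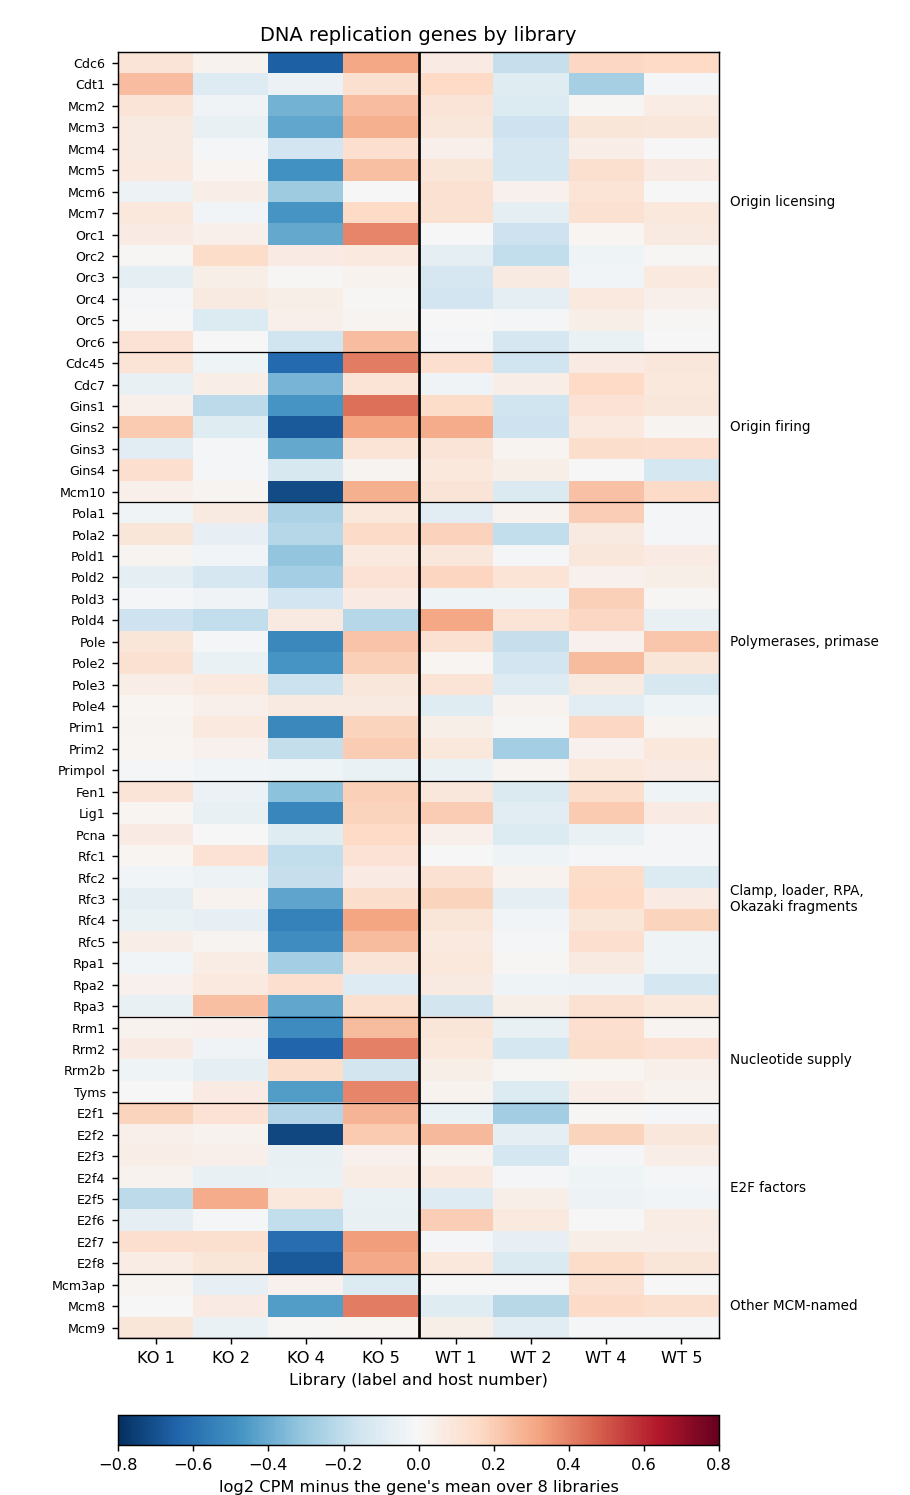
Level of each of the 60 replication genes in each library, as the difference of its log2 CPM from the mean over all 8 libraries (colour scale in log2 units), with the 4 libraries labelled knock-out on the left and the 4 labelled wild type on the right, and genes in rows by role. KO 4 is the lowest library for 41 genes and KO 5 the highest for 28.

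The level per length, given as RPKM (CPM per kilobase of the gene length in the file), ordered the members in much the same way under both labels. Pcna, the sliding clamp that holds polymerases on DNA, was highest at 185 ± 13.9 RPKM under the knock-out label and 177 ± 7.89 RPKM under the wild-type label (SD, n = 4 each). It was followed by Rpa1, the large subunit of the single-strand binding protein, at a mean of 74.9 RPKM under the knock-out label and 78.2 RPKM under the wild-type label. The ring genes Mcm2 to Mcm7 had mean levels of 44.7 to 65.6 RPKM under the knock-out label and 48.1 to 67.8 RPKM under the wild-type label. At the low end stood E2f7, an E2F repressor, at 1.93 RPKM under the knock-out label and 1.89 RPKM under the wild-type label, and Mcm8, a helicase of recombination repair, at 1.94 RPKM under the knock-out label and 1.89 RPKM under the wild-type label. The lowest count of any member in any library was 134, so every member was well above the low-count range.

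Among the 14 genes of origin recognition and licensing, Orc2 came nearest to the threshold. Orc2, a subunit of the origin recognition complex, was at 40.3, 44.4, 42.0 and 42.4 CPM in KO 1, KO 2, KO 4 and KO 5, against 38.0, 35.1, 39.2 and 40.4 CPM in WT 1, WT 2, WT 4 and WT 5. Only KO 1 and WT 5 overlapped. Its log2 fold change was 0.15 ± 0.06 (SE) and it did not pass edgeR's test (adjusted p = 0.147). The ring gene Mcm6 was at 274, 293, 232 and 282 CPM in the libraries labelled knock-out, against 307, 289, 304 and 283 CPM in those labelled wild type. KO 4 was lowest, and KO 2 lay among the wild-type labelled libraries (log2 fold change -0.13 ± 0.07, edgeR adjusted p = 0.304). Orc6, a further origin recognition subunit, differed by 0.11 ± 0.08 on the log2 scale (edgeR adjusted p = 0.495), and Cdt1, the licensing factor, by 0.11 ± 0.10 (edgeR adjusted p = 0.59).

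The loading factor Cdc6 showed the pattern that recurs below. It was at 45.3, 42.9, 26.8 and 52.1 CPM in KO 1, KO 2, KO 4 and KO 5, against 44.1, 37.1, 47.3 and 47.1 CPM in WT 1, WT 2, WT 4 and WT 5. KO 4 lay below and KO 5 above all other libraries, while KO 1 and KO 2 fell inside the range of the wild-type label. Mcm2, Mcm3, Mcm4, Mcm5, Mcm7, Orc1 and Orc6 had the same lowest and highest library. Orc3, Orc4 and Orc5, by contrast, stayed within 64.3 to 69.9 CPM, 67.3 to 71.0 CPM and 22.6 to 25.1 CPM across the 4 libraries labelled knock-out, and within 61.7 to 71.7 CPM, 60.8 to 71.3 CPM and 24.1 to 25.2 CPM across the 4 labelled wild type. KO 4 was not the lowest of its label for any of these 3 subunits.

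All 7 genes of helicase activation and origin firing were lowest in KO 4 among the libraries labelled knock-out, compared with 30.9% of all genes. Mcm10, which joins the helicase when it becomes active, was at 24.9, 24.5, 14.7 and 29.5 CPM in KO 1, KO 2, KO 4 and KO 5, against 26.0, 22.3, 28.5 and 26.9 CPM in WT 1, WT 2, WT 4 and WT 5. Cdc45, a subunit of the active helicase, was at 26.3, 23.8, 15.9 and 32.4 CPM in the libraries labelled knock-out, against 26.7, 21.9, 25.5 and 26.0 CPM in those labelled wild type. Gins2, a GINS subunit, was at 11.9, 9.60, 6.45 and 12.8 CPM under the knock-out label, against 12.6, 9.15, 10.9 and 10.4 CPM under the wild-type label. For all 3 genes KO 4 lay below and KO 5 above every other library, and KO 5 exceeded KO 4 by 2.00-fold for Mcm10, 2.04-fold for Cdc45 and 1.99-fold for Gins2. Their label differences were -0.15 ± 0.18, -0.02 ± 0.18 and -0.08 ± 0.20 on the log2 scale (SE), none past edgeR's test. The smallest p of the role belonged to Gins3, also a GINS subunit (-0.19 ± 0.11, edgeR adjusted p = 0.348), followed by the kinase Cdc7 (-0.12 ± 0.10, edgeR adjusted p = 0.506).

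The 13 genes of the polymerases and primase held the member with the smallest p of all. Pold4, the small accessory subunit of polymerase delta, was at 24.7, 24.1, 29.1 and 23.6 CPM in KO 1, KO 2, KO 4 and KO 5, against 34.2, 29.9, 31.1 and 26.5 CPM in WT 1, WT 2, WT 4 and WT 5. KO 1, KO 2 and KO 5 lay below every library labelled wild type, and KO 4 lay above WT 5. The log2 fold change was -0.26 ± 0.09 and did not pass edgeR's test (adjusted p = 0.115). Without KO 4, Pold4 was the 1 member called, lower in the libraries labelled knock-out (-0.34, edgeR adjusted p = 0.0315). That fit called 688 of all 11354 genes higher and 509 lower. Over the alternatives fitted, the log2 fold change of Pold4 stayed negative, and its adjusted p lay between 0.0315 and 0.997.

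Pold2, a further subunit of polymerase delta, differed by -0.18 ± 0.08 on the log2 scale (edgeR adjusted p = 0.222). Pole4, a histone-fold subunit of polymerase epsilon, was at 48.2, 49.0, 50.1 and 50.1 CPM in the libraries labelled knock-out, against 44.6, 48.7, 44.8 and 46.5 CPM in those labelled wild type. Its libraries lay close together under both labels, WT 2 overlapped those labelled knock-out, and the difference of 0.10 ± 0.05 did not pass edgeR's test (adjusted p = 0.232). Primpol, which can restart a stalled fork with a new primer, had the smallest spread of any member under the knock-out label, at 32.8, 32.4, 32.3 and 31.8 CPM, against 31.8, 33.6, 34.9 and 34.5 CPM under the wild-type label. Prim1, the catalytic primase subunit, in contrast had 29.0, 30.1, 19.9 and 32.3 CPM in KO 1, KO 2, KO 4 and KO 5, against 29.4, 28.7, 31.9 and 28.9 CPM in WT 1, WT 2, WT 4 and WT 5, with KO 4 apart from the rest. The counts of Primpol may include reads of Cenpu, a centromere gene whose annotation overlaps it by 4990 bases. Altogether 17 of the 60 members overlap another measured gene, among them Mcm9 with Asf1a, Orc1 with Prpf38a and Orc4 with Mbd5, and how the authors' counting treated shared bases is not given in the sources used here.

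Of the 11 genes of the clamp, the clamp loader, single-strand binding and Okazaki fragments, the smallest p values belonged to the loader subunits Rfc3 and Rfc2 and to Lig1, the ligase that joins Okazaki fragments. Lig1 was at 99.2, 93.9, 68.4 and 111 CPM in the libraries labelled knock-out, against 113, 92.0, 113 and 103 CPM in those labelled wild type. KO 4 alone lay below the range of the wild-type label (log2 fold change -0.18 ± 0.13, edgeR adjusted p = 0.486). Pcna was at 239, 229, 213 and 255 CPM in KO 1, KO 2, KO 4 and KO 5, against 235, 211, 220 and 226 CPM in WT 1, WT 2, WT 4 and WT 5, a narrower range than that of Lig1. Rfc3 and Rfc2 had log2 fold changes of -0.15 ± 0.11 and -0.09 ± 0.07 (SE), neither past edgeR's test. Rpa2, the middle subunit of the single-strand binding protein, ran the other way, with KO 4 the highest of all 8 libraries at 92.9 CPM and KO 5 at 78.7 CPM.

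The nucleotide supply genes split in the same manner. Rrm2, the S-phase small subunit of ribonucleotide reductase, was at 152, 143, 93.8 and 192 CPM in KO 1, KO 2, KO 4 and KO 5, against 154, 132, 161 and 157 CPM in WT 1, WT 2, WT 4 and WT 5. KO 5 had 2.05 times the level of KO 4, and the mean difference between labels was -0.05 ± 0.18 on the log2 scale (edgeR adjusted p = 0.905). Rrm2b, the p53-induced small subunit used outside S phase, was at 34.5, 33.7, 39.0 and 31.9 CPM under the knock-out label, against 36.6, 35.7, 35.8 and 36.3 CPM under the wild-type label. The label difference was -0.05 ± 0.06 and did not pass edgeR's test. KO 4 was the highest and KO 5 the lowest of all 8 libraries, the reverse of Rrm2. Rrm1, the large subunit, and Tyms, which makes thymidylate, followed Rrm2, with KO 4 lowest and KO 5 highest.

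Among the 8 E2F factors, E2f6, a repressor that acts without Rb proteins, was the 1 member whose libraries did not overlap. It was at 16.5, 17.3, 15.2 and 16.7 CPM in the libraries labelled knock-out, against 20.0, 18.4, 17.5 and 18.2 CPM in those labelled wild type. The gap between KO 2 and WT 4 was small, and the log2 fold change of -0.17 ± 0.07 did not pass edgeR's test (adjusted p = 0.149). E2f1, an activator, had the highest log2 fold change of the 60 members (0.17 ± 0.11, edgeR adjusted p = 0.393). E2f2, also an activator, was at 99.9, 98.9, 58.5 and 112 CPM in KO 1, KO 2, KO 4 and KO 5, against 116, 91.9, 110 and 104 CPM in WT 1, WT 2, WT 4 and WT 5, with KO 4 far below the rest (-0.19 ± 0.17, edgeR adjusted p = 0.578). The repressors E2f7 and E2f8 had KO 4 as the lowest and KO 5 as the highest library, whereas KO 4 differed from the mean of the other 3 libraries of its label by -0.10 for E2f3, -0.06 for E2f4 and 0.07 for E2f5 on the log2 scale. Of the 3 MCM-named genes outside the replicative ring, Mcm8 was lowest in KO 4 and highest in KO 5. Mcm9, its partner in recombination repair, and Mcm3ap, an mRNA export factor, had log2 fold changes of 0.03 ± 0.05 and -0.06 ± 0.05 (SE), with neither past edgeR's test.

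The members varied more among the libraries labelled knock-out than among those labelled wild type. The SD of log2 CPM over 4 libraries had a median of 0.194 under the knock-out label and 0.0972 under the wild-type label for the 60 members, against 0.108 under the knock-out label and 0.0973 under the wild-type label for all genes. The SD was larger under the knock-out label for 48 of 60 members (80%), compared with 56.6% of all genes. It was more than 2-fold larger for 33 members (55%), compared with 18.8% of all genes. These are descriptions, since members that move together are not independent of each other. The largest SD under the knock-out label was that of Gins2 (0.442), followed by Rrm2 (0.432) and Mcm10 (0.431), and the smallest that of Primpol (0.0179). Under the wild-type label the largest were Gins2 (0.188), Mcm8 (0.177) and Cdt1 (0.175).

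**Figure D3:**
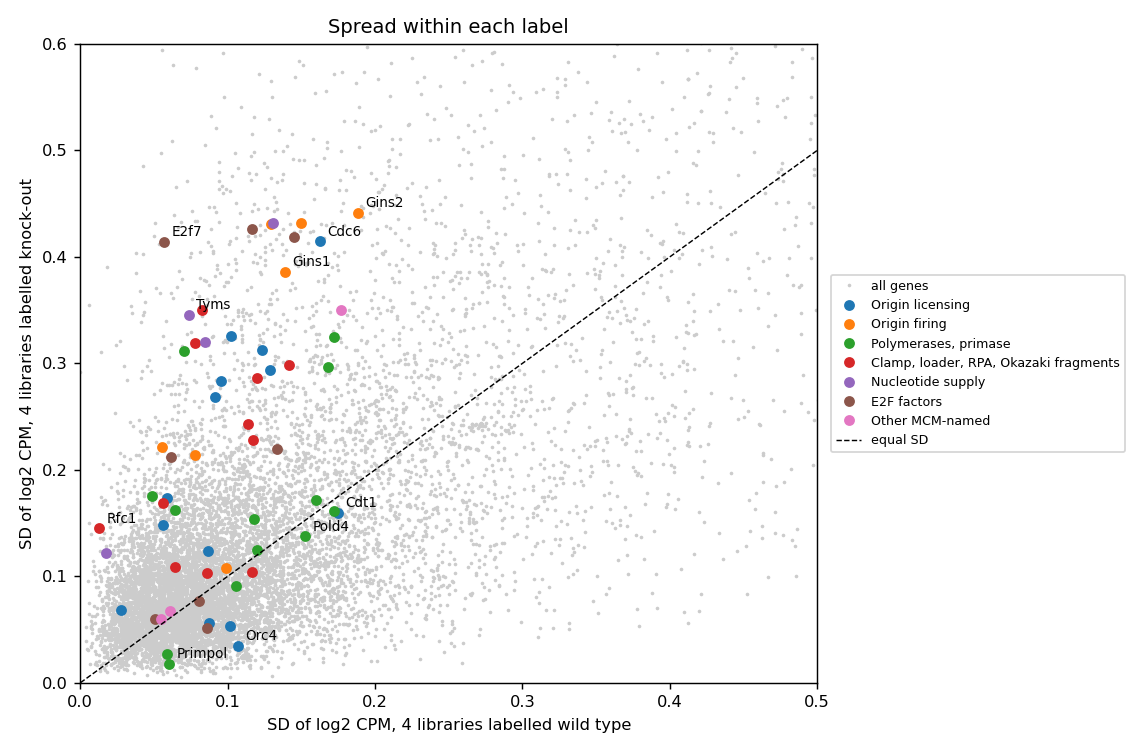
SD of log2 CPM over the 4 libraries labelled knock-out (y axis) against that over the 4 libraries labelled wild type (x axis), with the 60 replication genes coloured by role, all genes in grey and a dashed line for equal SDs. Of the 60 genes, 48 lie above the line, and some grey points lie beyond the axis limits.

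Most of that spread came with KO 4. It was the lowest of all 8 libraries for 41 of 60 members (68.3%, against 19.4% of all genes), and KO 5 was the highest for 28 (46.7%, against 14.4% of all genes). Set against the mean of the other 3 libraries of its label, KO 4 had a median log2 difference of -0.33 over the members and 0.01 over all genes. The same difference was 0.24 for KO 5, 0.06 for KO 1 and 0.05 for KO 2. Under the wild-type label the medians were 0.06 for WT 1, -0.11 for WT 2, 0.07 for WT 4 and 0.02 for WT 5, and WT 2 was the lower for 54 of 60 members. Without KO 4, the median SD under the knock-out label was 0.0981 and 33 of 60 members had the larger SD there. Over all genes without KO 4, that median was 0.0868, and 43.9% had the larger SD under the knock-out label.

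KO 4 did not differ alike across the roles. Its median log2 difference from the other libraries of its label was -0.60 for nucleotide supply, -0.56 for origin firing, -0.41 for clamp, loader and Okazaki genes, -0.28 each for licensing genes and E2F factors, -0.27 for polymerases and primase, and -0.01 for the MCM-named genes outside the ring. The most negative single values were those of Mcm10 (-0.83), E2f8 (-0.82), E2f2 (-0.82) and Gins2 (-0.81). KO 4 was higher than the mean of the other 3 for 9 members, led by Pold4 (0.27), Rrm2b (0.22) and Rpa2 (0.13). The others were Mcm3ap, E2f5, Orc3, Orc4, Orc5 and Pole4.

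**Figure D4:**
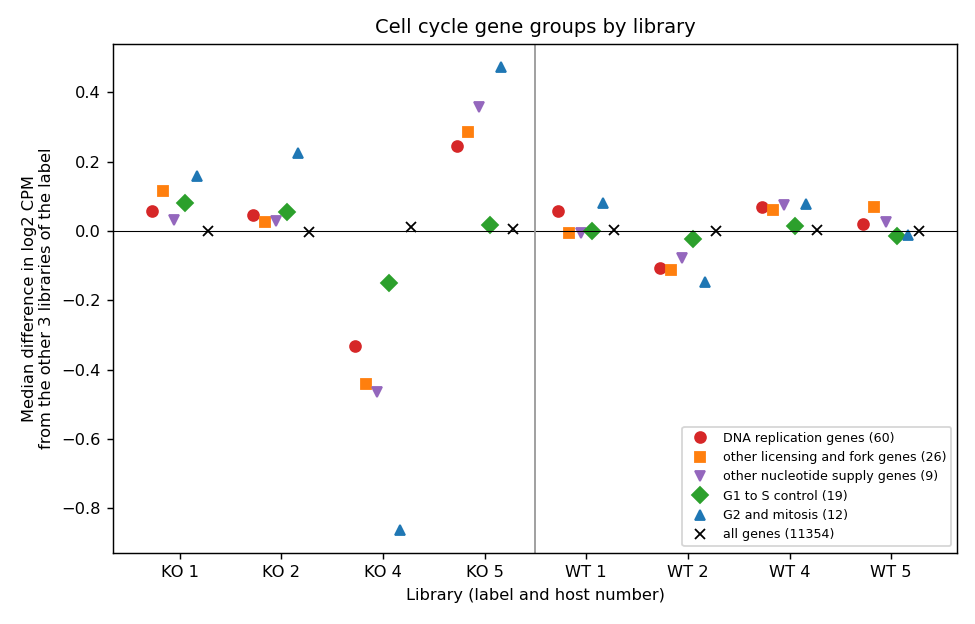
Difference of each library's log2 CPM from the mean of the other 3 libraries of its label (y axis, log2 units) as the median over each gene group (symbols), with libraries labelled knock-out on the left and those labelled wild type on the right. The circle of the 60 replication genes is at -0.33 in KO 4 and 0.24 in KO 5, and the triangle of the 12 mitotic genes is at -0.86 in KO 4 and 0.47 in KO 5.

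KO 4 and KO 5 were also the extremes for mitotic genes. Mki67, the proliferation marker, was at 694, 714, 437 and 800 CPM in KO 1, KO 2, KO 4 and KO 5, against 673, 624, 733 and 680 CPM in WT 1, WT 2, WT 4 and WT 5 (log2 fold change -0.04 ± 0.16, edgeR adjusted p = 0.935). KO 4 was lowest and KO 5 highest for it. All 12 listed genes of G2 phase and mitosis were lowest in KO 4 and highest in KO 5 among the libraries labelled knock-out, with median log2 differences of -0.86 for KO 4 and 0.47 for KO 5. None of the 12 was called. Those with the smallest p were Aurka, a spindle kinase, Cdk1, the mitotic kinase, and its cyclin Ccnb2, with log2 fold changes of -0.17 ± 0.13, -0.12 ± 0.16 and -0.11 ± 0.20 (SE).

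With those 12, the lists of other replication, nucleotide, G1 to S and mitotic genes held 66 genes. edgeR called 3 of them (4.55%, against 10.0% of all genes), and 8 had an unadjusted p below 0.05 (12.1%, against 23.5% of all genes). The difference between these shares was not tested. Cdkn1a, the p21 inhibitor of cyclin-dependent kinases, was at 136, 159, 194 and 157 CPM in the libraries labelled knock-out, against 114, 123, 110 and 109 CPM in those labelled wild type. It rose by 0.50 ± 0.10 on the log2 scale (edgeR adjusted p = 0.00913), with all 4 libraries of the knock-out label above all 4 of the other, and KO 4 highest. With the description code as a term in the model its adjusted p was 0.0619, and with the myeloid level as a covariate its log2 fold change turned to -0.22. The myeloid level nearly follows the label, so the latter value is poorly determined.

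Mcmbp, which binds the Mcm ring proteins, was at 117, 117, 114 and 121 CPM in KO 1, KO 2, KO 4 and KO 5, against 102, 102, 106 and 109 CPM in WT 1, WT 2, WT 4 and WT 5. It rose by 0.16 ± 0.04 (edgeR adjusted p = 0.0256), and the labels did not overlap. Tfdp2, a partner of E2F factors on DNA, fell by 0.31 ± 0.08 on the log2 scale (edgeR adjusted p = 0.0288), at 15.3, 15.4, 13.4 and 14.6 CPM under the knock-out label, against 20.2, 17.7, 16.8 and 18.4 CPM under the wild-type label. Both calls were near the threshold. That of Mcmbp was lost without KO 1, KO 2, KO 5, WT 1, WT 2 or WT 4, with adjusted p up to 0.0941, and with total library size as the scale. That of Tfdp2 was lost without KO 1, KO 4, KO 5, WT 1, WT 2 or WT 5, with adjusted p up to 0.0843. With the description code as a term, edgeR's adjusted p was 0.132 for Mcmbp and 0.187 for Tfdp2.

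Of the other genes with the smallest p of their own list, none passed the test. For G1 to S control this was Cdkn2a, an inhibitor of cyclin D kinases (-0.53 ± 0.19, edgeR adjusted p = 0.131). For licensing, firing and fork genes these were Dbf4, the activating subunit of the Cdc7 kinase (0.17 ± 0.08, edgeR adjusted p = 0.255), and Dnmt1, the maintenance DNA methyltransferase (-0.13 ± 0.08, edgeR adjusted p = 0.419). For nucleotide supply these were Dctpp1 (-0.22 ± 0.14), Cmpk1 (0.06 ± 0.04) and Shmt1 (-0.21 ± 0.19), on the log2 scale with SE. Cdkn2a was called, lower, without WT 5 (-0.66, edgeR adjusted p = 0.0416).

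Myeloid markers moved with the labels and with KO 4. Of 19 measured of 20 listed, edgeR called 17 higher in the libraries labelled knock-out. Their summed level was 315, 549, 966 and 716 CPM in KO 1, KO 2, KO 4 and KO 5, against 106, 81.4, 60.0 and 83.3 CPM in WT 1, WT 2, WT 4 and WT 5. KO 4, the lowest library for most replication genes, had the highest myeloid sum, but KO 5, the highest library for many replication genes, had the next highest. Of the other marker lists, the B cell markers were not analysed here, 1 of 2 CD8 markers was called higher, 2 of 12 T cell markers were called lower (Zap70 and Cd247, with edgeR adjusted p = 0.0304 and 0.0444), and the measured epithelial and red cell markers gave 0 calls. Cd4 was at 1181, 1144, 1477 and 1087 CPM in the libraries labelled knock-out, against 1532, 1549, 1321 and 1384 CPM in those labelled wild type, with KO 4 the highest of its label. The description code also sets KO 4 and KO 5 together, although they lie at opposite ends for these genes. With the mean log2 level of the myeloid markers as a covariate, edgeR called 0 members, 5 of all genes higher and 2 lower. The median log2 fold change of the members was then 0.23. That mean log2 level was 3.47 to 5.04 in the libraries labelled knock-out and 0.76 to 1.71 in those labelled wild type. The covariate thus nearly follows the label, and the fit can hardly tell the 2 apart. The part of myeloid RNA, and of anything the code stands for, in the levels of the replication genes was not tested for any single library.

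Promoters were compared because E2F factors bind near the start of many of these genes. Promoter windows of 300 bases were available from RefSeq (GRCm38.p6) for 50 of the 60 members. The members without one were E2f4, E2f5, Gins1, Gins2, Gins4, Mcm4, Pole, Prim2, Rfc2 and Rrm2b. Most bases of a window lie before the start site given for that window. For some members, Cdc6, E2f1, E2f8 and Orc1 among them, the window lies inside the annotated gene. Some members, such as Lig1, had more than 1 window, and a match in any of them counted. The E2F letters TTTNNCGC, with C or G at each N, were searched on both strands and occurred in 20 of 50 members (40%), compared with 4.98% of the 9075 measured genes with a window and 2.26% of all 32851 windows. The CCAAT box (CCAAT) occurred in 31 members (62%, against 43.2% of measured genes with a window), and the cell cycle homology region (TTTGAA) in 9 (18%, against 14.3%). The E2F letters were found in 8 of 13 licensing genes, 5 of 11 polymerase and primase genes, 3 of 6 E2F factors, 2 of 10 clamp and Okazaki genes, 1 of 4 firing genes, 1 of 3 MCM-named genes outside the ring and 0 of 3 nucleotide genes.

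Members with the E2F letters had a median SD of log2 CPM of 0.263 under the knock-out label and 0.110 under the wild-type label (n = 20). Members without them had 0.173 under the knock-out label and 0.0837 under the wild-type label (n = 30). Over all measured genes with a window, the median SD under the knock-out label was 0.105 with the letters and 0.106 without. The ranges overlapped widely, as the sequences of members at both ends show. E2f2 and Cdc6 are shown as the members with a match and the largest spread under the knock-out label, Pole4 as the one with a match and the smallest spread, and Rrm2 and Primpol as the largest and the smallest without a match. Capitals mark the E2F letters on either strand.
E2f2, chr4:136172024-136172323, plus strand, with a match and a large spread: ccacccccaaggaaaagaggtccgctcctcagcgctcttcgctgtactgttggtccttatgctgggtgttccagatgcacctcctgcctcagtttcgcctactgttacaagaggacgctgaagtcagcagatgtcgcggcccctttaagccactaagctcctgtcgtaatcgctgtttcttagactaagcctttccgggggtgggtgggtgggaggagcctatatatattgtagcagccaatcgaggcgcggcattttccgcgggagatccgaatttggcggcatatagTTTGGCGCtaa
Cdc6, chr11:98907901-98908200, plus strand, with a match and a large spread: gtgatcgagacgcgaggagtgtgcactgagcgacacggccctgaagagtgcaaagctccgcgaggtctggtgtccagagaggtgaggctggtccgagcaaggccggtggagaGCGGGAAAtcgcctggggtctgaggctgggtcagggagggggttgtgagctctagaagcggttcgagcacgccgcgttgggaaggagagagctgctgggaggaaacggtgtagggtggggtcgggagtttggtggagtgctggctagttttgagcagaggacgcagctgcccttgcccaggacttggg
Pole4, chr6:82652816-82653115, minus strand, with a match and a small spread: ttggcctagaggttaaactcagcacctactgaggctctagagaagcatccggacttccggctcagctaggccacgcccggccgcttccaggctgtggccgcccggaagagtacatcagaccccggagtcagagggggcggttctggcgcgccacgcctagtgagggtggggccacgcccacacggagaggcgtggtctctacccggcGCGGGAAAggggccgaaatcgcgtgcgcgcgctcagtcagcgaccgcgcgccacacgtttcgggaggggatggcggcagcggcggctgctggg
Rrm2, chr12:24708004-24708303, plus strand, no match and a large spread: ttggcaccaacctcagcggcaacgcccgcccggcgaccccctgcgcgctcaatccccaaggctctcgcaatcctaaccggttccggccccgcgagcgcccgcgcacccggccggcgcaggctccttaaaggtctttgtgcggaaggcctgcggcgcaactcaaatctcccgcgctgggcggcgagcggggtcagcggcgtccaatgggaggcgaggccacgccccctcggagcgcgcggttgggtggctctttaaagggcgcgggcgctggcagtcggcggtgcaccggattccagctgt
Primpol, chr8:46617178-46617477, minus strand, no match and a small spread: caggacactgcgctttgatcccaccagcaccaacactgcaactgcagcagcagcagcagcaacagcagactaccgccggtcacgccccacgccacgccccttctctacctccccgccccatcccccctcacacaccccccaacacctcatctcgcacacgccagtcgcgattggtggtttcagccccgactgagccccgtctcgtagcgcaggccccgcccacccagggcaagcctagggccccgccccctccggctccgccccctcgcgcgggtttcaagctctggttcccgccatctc

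Pole4 carries the letters and had an SD of 0.0270 under the knock-out label and 0.0586 under the wild-type label, whereas Rrm2 lacks them in this window and had an SD of 0.432 under the knock-out label and 0.131 under the wild-type label. E2f2 and Cdc6, with the letters, had SDs of 0.419 and 0.415 under the knock-out label, and 0.145 and 0.163 under the wild-type label. A match describes letters in the window and does not show binding. The plot of spread by match shows the overlap of both sets.

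**Figure D5:**
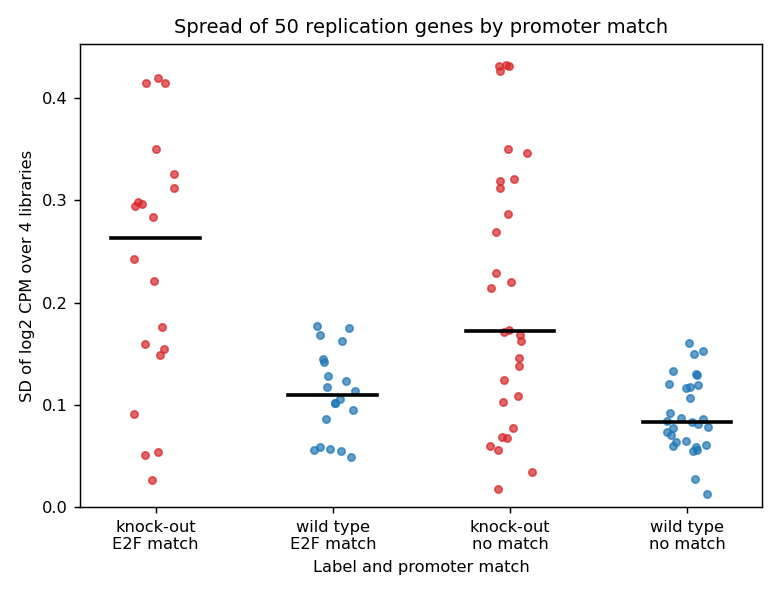
SD of log2 CPM of the 50 replication genes with a promoter window (y axis), under the knock-out label and the wild-type label, split by whether the window holds the E2F letters. Each point is a gene and each bar a median, 0.263 with and 0.173 without a match under the knock-out label.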

How the data were processed

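Whole-number counts per gene were deposited for 8 libraries, with Entrez identifiers, symbols and gene lengths per the file headers. Libraries came from a TruSeq Stranded kit for poly(A) RNA, sequenced in single reads of 81 bases (NextSeq 500), per the labels' protocols. STAR and the mm10 build are named per the submitters' processing notes, and the version, counting tool, annotation, strand setting and any filter were not given in the sources used here.

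Members, roles and lists were chosen with earlier results of these data known. Counts were scaled with TMM and tested in edgeR 4.0.16 (R 4.3.3) by glmQLFit and glmQLFTest with the label alone, Benjamini-Hochberg adjusted over all 11354 genes, with calls at an adjusted p below 0.05. filterByExpr kept every gene. The SE was taken as the size of the log2 fold change over the root of its F, and log2 CPM used a prior count of 2. The test was first checked on data simulated with the same spread setting for every gene and no outlying library. That check does not cover a library such as KO 4. The labels do not say that libraries came from separate animals, so a p-value reflects variation among these 8 libraries, which may be technical. Totals were 35198192 to 40310721 counts. The counting error of the lowest member count, 134, was 8.64%, taken from the root of that count.

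Genes named are the 3 members with the smallest p in each role, the 3 with the largest SD under each label, Mki67, called genes and the 3 with the smallest p of the other lists, and Nlrp6. Other members were named once their values had been seen. The alternatives comprised RLE and total library size scaling, no filter, 1 CPM in 4 libraries, DESeq2 1.42.0 and limma-voom 3.58.1 with sample quality weights. They also comprised a host block, the description code, a myeloid covariate, a prior count of 0.5 and leaving out each library. Promoters came from RefSeq (GRCm38.p6) by symbol.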

Additional observations from a re-analysis of the deposited data

Results flagged for a closer look

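In 5 of the member and label combinations, 1 library lay far from the other 3, with a gap to its neighbour that took most of the range of the 4 (Dixon's ratio above its 95% limit). Pole3 was at 9.09 CPM in KO 4 and at 10.7, 10.8 and 10.9 CPM in KO 1, KO 2 and KO 5, with a ratio of 0.859. WT 2 was the low library for Mcm3 (ratio 0.987), Prim2 (0.846) and Tyms (0.83), and WT 4 the high one for Mcm3ap (0.926). Chance flags about 1 in 20 groups, and 5.43% of all genes under the knock-out label and 5.58% under the wild-type label passed the same limit. KO 4 passed it for no member other than Pole3.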

How the results depend on the processing

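No member was called by edgeR under RLE scaling, unscaled library totals, the unfiltered table, the filter of 1 CPM, the description code as a term or the myeloid covariate, nor by DESeq2. Of all genes, RLE scaling called 700 higher and 444 lower, and unscaled totals 675 higher and 539 lower. The unfiltered table gave 704 higher and 436 lower, and the filter of 1 CPM 704 higher and 435 lower. DESeq2 called 926 higher and 653 lower. limma-voom called 1 member lower, with 795 of all genes higher and 589 lower. Host number as a replicate block called 0 members, with 638 of all genes higher and 382 lower. The deviations of log2 CPM from the label mean, over all genes, were correlated between same-numbered libraries. The correlations were -0.06, 0.18, -0.14 and 0.26 for hosts 1, 2, 4 and 5, not above 0.1 for every host. Whether same-numbered libraries share a mouse is not known. Unscaled totals left 1 of the other 66 listed genes called higher. The code term left 496 of all genes called higher and 249 lower, and 0 of the other 66 listed genes called. The myeloid covariate left 5 of all genes higher and 2 lower, 0 of the other 66 listed genes, and a member median of 0.23. It nearly follows the label, so label differences from that fit are poorly determined.

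Signs turned for genes that were near 0 or uncalled, Cdkn1a excepted. limma-voom gave 0.0065 for Gins2, 0.036 for Mki67 and 0.0049 for Rrm2, and the code term 0.055 for Mki67. The covariate gave log2 fold changes of 0.063 for Aurka, 0.57 for Ccnb2, 0.29 for Cdc7, 0.40 for Cdk1, -0.22 for Cdkn1a, 0.16 for Cdkn2a, -0.0033 for Cmpk1, 0.27 for Dnmt1, 0.40 for E2f2, 0.48 for Gins2, 0.087 for Gins3, 0.27 for Lig1, 0.55 for Mcm10, 0.082 for Mcm3ap, 0.12 for Mcm6, 0.64 for Mki67, 0.080 for Rfc2, 0.070 for Rfc3, 0.38 for Rrm1, 0.46 for Rrm2 and 0.22 for Shmt1.

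Leaving out 1 library at a time gave 276 to 509 genes lower, 0 to 1 member lower, 1 to 3 other listed genes higher and 0 to 1 lower. The median SD of members was 0.0981 (without KO 4) to 0.211 under the knock-out label and 0.0613 (without WT 2) to 0.104 under the wild-type label. Log2 fold changes without KO 5 and without KO 4 ran from -0.26 to 0.071 for Ccnb2, -0.24 to 0.033 for Cdk1, -0.21 to 0.086 for Gins2, -0.28 to 0.018 for Mcm10, -0.10 to 0.17 for Mcm8, -0.17 to 0.058 for Rrm1 and -0.22 to 0.10 for Rrm2, and reached 0.12 for Mki67. The causes of these shifts were not tested.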
